A study of Mus musculus with 6 samples.

Results

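The ERBB receptors and the EGF-family ligands that activate them were examined in alveolar type II cells, the surfactant-producing cells of the alveolus, after deletion of Stat3. The members were 10 genes, the receptors Egfr, Erbb2, Erbb3 and Erbb4 and the ligands Areg, Ereg, Hbegf, Tgfa, Btc and Nrg1, with each probe set annotated to one of them alone. These were 20 of the 45037 probe sets tested, for 9 of the 10 genes; Areg is not named by such a probe set here and no value is given for it. None of the 20 met the study's thresholds together (p of 0.05 or less, false discovery rate, FDR, of 10% or less, 1.5-fold or more), which 0.00222% of all probe sets met toward higher signal and 0% toward lower; by the brightest probe set of each gene it was 0.011% of all genes higher and 0% lower. The paper applied these thresholds to values normalized by another method than the one used here. It also took mRNAs that changed in several probe sets, without applying the FDR. The log2 fold changes of the 9 genes, each by its brightest probe set, ran from -0.39 for Erbb2 to 0.32 for Ereg. After normalization, only the dimmer of a pair of probe sets for betacellulin (Btc) separated all Stat3Δ/Δ arrays from all control arrays, toward higher signal; as deposited, the brighter one did so too, by a narrow margin.

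ERBB receptors are tyrosine kinases that work as dimers. EGFR binds the ligands of the EGF group, ERBB2 binds none and serves as a partner, ERBB3 has a weak kinase and passes its signal through its partners to PI3K, and ERBB4 and ERBB3 bind the neuregulins. The ligands are made as membrane proteins and are released by metalloproteinases, and in the lung epithelium they are known for roles in growth and repair. Activated EGFR is one of the receptors that lead to phosphorylation of STAT3.

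The Stat3Δ/Δ cells came from triple-transgenic mice that carry SP-C-rtTA, (tetO)7CMV-Cre and Stat3flx/flx, in which the SP-C promoter drives the doxycycline-dependent activator, so that Cre acts in lung epithelium. The control cells came from littermates, labelled as double transgenic for SP-C-rtTA and (tetO)7CMV-Cre; the methods describe the controls as carrying either transgene with Stat3flx/flx, and 1 label field gives the triple genotype for all arrays. The dams of both groups were given doxycycline in the food before and after birth, and all mice were 8 weeks old. Each group had 3 pools of 3 mice, isolated with collagenase and differential plating, and 1 array for each pool. The titles carry a leading number of unstated meaning, 2 in control pool 3 and also in Stat3Δ/Δ pools 1 and 2, 5 in Stat3Δ/Δ pool 3 and 12 in the remaining controls. A value within the shared number thus sets Stat3Δ/Δ pools 1 and 2 against control pool 3 alone.

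Signals are the deposited linear values of Microarray Suite 5.0. Fold changes come from limma on quantile-normalized log2(signal + 69.9), which understates the change of dim probe sets, and p was adjusted over all probe sets or, for a gene's brightest probe set, over 18193 genes. Probe sets differ in their affinity, so levels were not compared between genes. In pools of cells, fewer cells of a type and less RNA for each cell cannot be told apart. Median signals ran from 282.8 to 381.2 over the 6 arrays. Of 4 probe sets for Stat3, 2 had every Stat3Δ/Δ value below every control value, with log2 fold changes of -0.80 and -0.71, and the others gave -0.046 and 0.60; none passed the FDR. The Actb control probe sets, whose log2 3'/5' ratio follows RNA integrity, gave 0.39 ± 0.046 in the Stat3Δ/Δ group (SD, n = 3) against 0.64 ± 0.17 in the control group, and those of Gapdh -0.41 ± 0.099 against 0.020 ± 0.26; each difference had p = 0.1 by exact two-sided permutation, which is the lowest value 3 pools against 3 can reach. Its part in the results was not tested.

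Erbb3 had a signal of 10616.5, 10644.4 and 13696.6 on the arrays of Stat3Δ/Δ pools 1 to 3 and of 13480.0, 11604.2 and 12030.7 on those of control pools 1 to 3. The groups overlapped, with Stat3Δ/Δ pool 3 above every control. The log2 fold change was -0.062 (standard error, SE, 0.24; adjusted p = 0.967 over genes from limma), with a 95% interval from -0.61 to 0.48. A second probe set for Erbb3 was dim and scattered, from 28.2 in Stat3Δ/Δ pool 2 to 349.5 in Stat3Δ/Δ pool 3 and from 36.2 to 91.5 in controls, and gave 0.38 (SE 0.51).

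Erbb2, the partner receptor, had signals of 1485.0, 1200.2 and 1789.6 in Stat3Δ/Δ pools 1 to 3 and of 2490.1, 1554.8 and 1832.3 in control pools 1 to 3. Stat3Δ/Δ pools 1 and 2 lay under every control, while Stat3Δ/Δ pool 3 lay among them. Its log2 fold change of -0.39 (SE 0.30, adjusted p = 0.791 over genes from limma) was the most negative of the 9 genes, and the 95% interval ran from -1.07 to 0.30. It stayed below 0 with any 1 pool left out, from -0.55 to -0.18, and was -0.44 within the arrays that share the title number 2. Among 9095 other genes over the median signal, the patterns most like that of Erbb2 over the 6 arrays were those of Thbs3 (Pearson r = 0.996), Sorcs2 (r = 0.994) and Pla2g6 (r = 0.992). These arrays share groups and processing, and with 6 points the ranking is a description alone.

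Erbb4, a neuregulin receptor, was near the bottom of the scale. Its probe set gave 37.0, 15.8 and 59.5 in Stat3Δ/Δ pools 1 to 3 and 98.4, 61.5 and 17.7 in control pools 1 to 3. In 5 of the 6 arrays it lay under 69.9, the 20th percentile of all signals, so its log2 fold change of -0.34 (SE 0.33) says little of the cells.

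**Figure D1:**
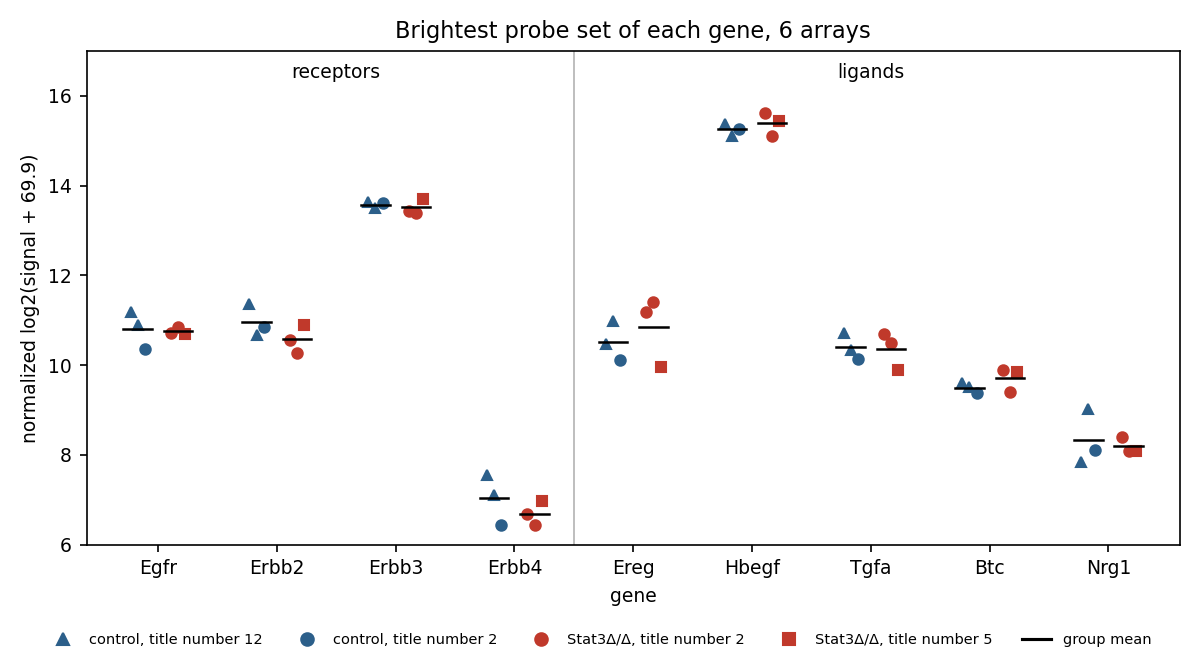
Normalized log2(signal + 69.9) of the brightest probe set of 4 receptor genes and 5 ligand genes (x axis) on 6 arrays. Points are pools, coloured by group with the shape giving the leading title number, and bars are group means; the groups overlap for each of the 9 genes.

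Egfr was read by 7 probe sets, whose log2 fold changes ran from -0.14 to 0.34, all with overlapping groups. The brightest, 1460420_a_at, gave 1656.4, 1812.7 and 1551.9 in Stat3Δ/Δ pools 1 to 3 and 2165.3, 1844.0 and 1300.1 in control pools 1 to 3. The Stat3Δ/Δ pools thus lay within the range of the controls, and the log2 fold change was -0.056 (SE 0.28, adjusted p = 0.978 over genes from limma; 95% interval -0.71 to 0.60). The ending _a_at marks a probe set designed to match several transcripts of 1 gene.

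The probe sets of Egfr did not order the control pools alike. In control pool 3 the probe sets 1460420_a_at, 1432647_at and 1454313_at had the lowest of their 6 signals, at 1300.1, 249.4 and 12.2. In the same pool 1435888_at and 1451530_at had the highest of their 6 signals, at 1361.3 and 496.0. Control pools 1 and 2 lay the other way, with the highest signals of 1432647_at (560.4 and 458.4) and of 1454313_at (408.2 and 450.5) and the lowest of 1451530_at (217.6 and 188.4). The annotation gives 1432647_at and 1454313_at the same cDNA as their source, so they are not independent readings.

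For 1435888_at, described after its values were seen, the arrays with title number 2 lay above the others, while the groups overlapped. The share of all probe sets that do so was not counted, so no effect of the title number is read from this. The 3 arrays numbered 2 gave 1230.0 and 1256.0 (Stat3Δ/Δ pools 1 and 2) and 1361.3 (control pool 3), and the others gave 747.8 (Stat3Δ/Δ pool 3), 699.5 and 919.2 (control pools 1 and 2). Over all arrays its log2 fold change was 0.058 (SE 0.30), and within the shared number -0.11. The direction of the Egfr probe sets likewise turned with the comparison: within the shared number 1460420_a_at gave 0.42, 1432647_at 0.57 and 1451530_at -0.29. The value of 2.11 for 1454313_at there, with that number as a fixed block, rests on the signal of 12.2 in control pool 3. With that pool left out of the comparison over all arrays, the log2 fold change was -0.66.

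The remaining Egfr probe sets were 1424932_at, with 764.7 to 974.2 in Stat3Δ/Δ cells and 833.3 to 994.2 in controls (log2 fold change -0.069, standard error 0.25), and 1457563_at, which was under 69.9 on all 6 arrays and too dim to read.

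**Figure D2:**
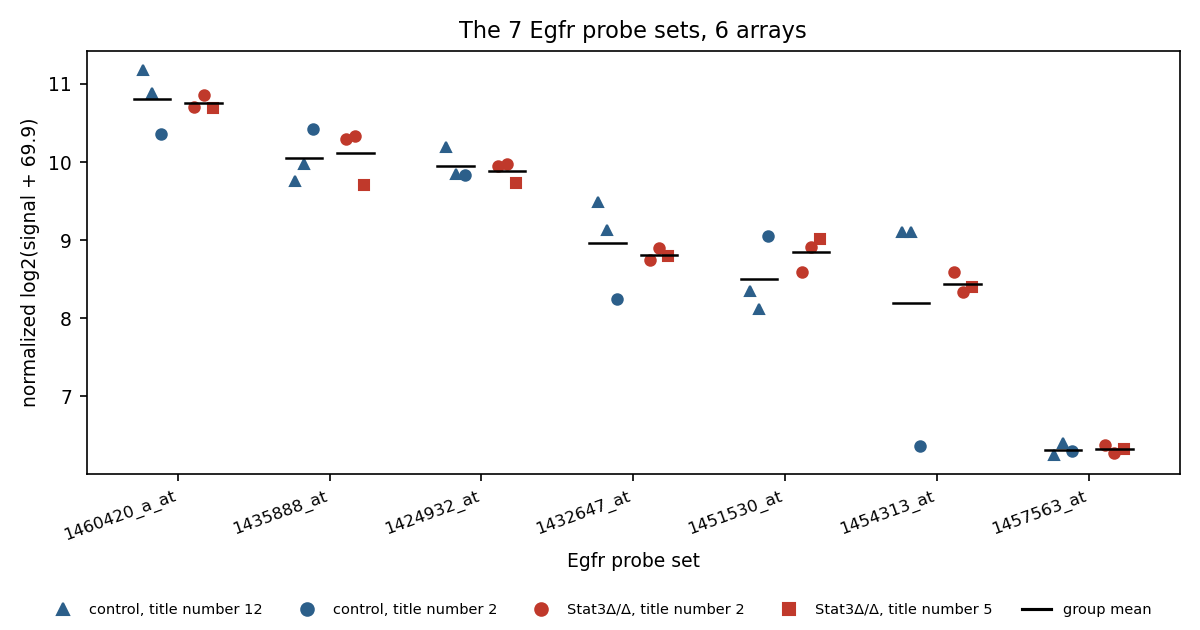
Normalized log2(signal + 69.9) of the 7 Egfr probe sets (x axis) on 6 arrays, with points for pools, shapes for the title number and bars for group means. Control pool 3 (blue circle) is lowest in 1460420_a_at, 1432647_at and 1454313_at and highest in 1435888_at and 1451530_at.

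Btc encodes betacellulin, a ligand of EGFR and ERBB4. Its dimmer probe set, 1421161_at, gave 505.6, 257.7 and 353.6 in Stat3Δ/Δ pools 1 to 3 and 127.6, 189.3 and 225.5 in control pools 1 to 3. The lowest Stat3Δ/Δ pool lay above the highest control, and of the 20 probe sets of the family 1 was separated in this direction and 0 in the other, beside 5.99% and 7.66% of all probe sets. By the brightest probe set, 0 of the 9 genes were separated either way, beside 4.23% of all genes higher and 10.2% lower. The log2 fold change was 0.68 (SE 0.28, unadjusted p = 0.041, adjusted p = 0.575 from limma), with a 95% interval from 0.036 to 1.32. It was the 1 probe set of the 20, or 5%, at an unadjusted p of 0.05 or less, beside 8.45% of all probe sets and, for 0 of the 9 genes, 7.81% of all genes. It was also the 1 past that p with a fold of 1.5, beside 8.36% of all probe sets, 4.14% higher and 4.22% lower. It stayed between 0.51 and 0.85 with any 1 pool left out and was 0.54 within the shared title number. The fold and the unadjusted p were passed together with Stat3Δ/Δ pool 2 left out and with none of the other 5 pools left out.

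The brighter probe set of Btc, 1435541_at, gave 938.0, 644.3 and 844.9 in Stat3Δ/Δ pools 1 to 3 and 609.9, 642.5 and 637.9 in control pools 1 to 3. As deposited, these signals did not overlap either, by the margin between 644.3 and 642.5, and after normalization between arrays they did. Its log2 fold change was 0.22 (SE 0.26, adjusted p = 0.858 over genes from limma; 95% interval -0.36 to 0.81). Both probe sets thus had estimates above 0, and neither passed the FDR.

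The bases before the start of Btc are shown because its dimmer probe set alone of the family separated the groups after normalization. Its brighter probe set did not. Those of Egfr are shown because it is the main receptor of these ligands. They are the 250 bases before the annotated start, from RefSeq on GRCm38.p6, for Btc at chr5:91402995-91403244 on the minus strand and for Egfr at chr11:16751953-16752202 on the plus strand. Capitals mark TTC and GAA, the outer letters of the palindrome TTCNNNGAA that STAT proteins are known to bind.
Btc: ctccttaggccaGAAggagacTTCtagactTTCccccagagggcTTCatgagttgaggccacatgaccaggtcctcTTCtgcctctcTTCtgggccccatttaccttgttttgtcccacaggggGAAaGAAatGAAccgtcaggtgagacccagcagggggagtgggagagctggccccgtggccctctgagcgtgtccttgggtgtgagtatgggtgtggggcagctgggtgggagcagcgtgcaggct
Egfr: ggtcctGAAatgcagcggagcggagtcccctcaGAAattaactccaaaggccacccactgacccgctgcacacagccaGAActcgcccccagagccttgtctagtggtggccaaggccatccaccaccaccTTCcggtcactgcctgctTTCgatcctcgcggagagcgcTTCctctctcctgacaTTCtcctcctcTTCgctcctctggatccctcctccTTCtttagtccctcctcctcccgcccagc
Btc held 9 such triplets and Egfr 9, and in neither did TTC precede GAA with 3 bases between them. RefSeq promoters of 300 bases were matched for 6 of the 10 members (Erbb4, Areg, Btc, Tgfa, Egfr and Erbb2), and none held TTCNNNGAA, which reads the same on both strands, while 8.3% of 32851 promoters did. This says only that these letters are not in these windows.

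Ereg, or epiregulin, another ligand of EGFR and ERBB4, varied widely among the pools. It gave 2309.5, 2673.7 and 905.7 in Stat3Δ/Δ pools 1 to 3 and 1252.7, 1990.6 and 1084.7 in control pools 1 to 3. Stat3Δ/Δ pools 1 and 2 were the highest and Stat3Δ/Δ pool 3 the lowest of the 6 arrays. The log2 signal was 10.84 ± 0.78 (SD, n = 3) with the deletion and 10.53 ± 0.45 (SD, n = 3) without, a log2 fold change of 0.32 (SE 0.43, adjusted p = 0.883 over genes from limma; 95% interval -0.66 to 1.30). Within the shared title number it was 1.19, and that comparison has control pool 3 as its 1 control and leaves out the low Stat3Δ/Δ pool 3. Over all 6 arrays the value moved from 0.039 to 0.76 with 1 pool left out, the higher without Stat3Δ/Δ pool 3.

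Ereg lies on chromosome 5 between Epgn and Areg, with Btc next in RefSeq's order of protein-coding genes. Epgn, the gene of the EGFR ligand epigen, gave 532.2, 172.1 and 257.3 in Stat3Δ/Δ pools 1 to 3 and 318.1, 404.3 and 96.7 in control pools 1 to 3. The groups overlapped, and the log2 fold change was 0.079 (SE 0.49). The 3 measured ligands of this row thus gave 0.079, 0.32 and 0.22 by their brightest probe sets, none beyond its error.

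Hbegf, which encodes a heparin-binding ligand of EGFR and ERBB4, was read by 2 bright probe sets. The brighter, 1418350_at, gave 44510.8, 33687.1 and 46978.5 in Stat3Δ/Δ pools 1 to 3 and 47287.5, 35879.2 and 38188.8 in control pools 1 to 3. The dimmer, 1418349_at, gave 18326.4, 10801.8 and 17816.2 in Stat3Δ/Δ cells and 17040.9, 9729.1 and 12518.9 in controls. In both, Stat3Δ/Δ pool 2 and control pools 2 and 3 were the 3 lowest arrays, so the variation between pools was shared by the probe sets and crossed the groups. The log2 fold changes were 0.14 (SE 0.25, adjusted p = 0.922 over genes from limma; 95% interval -0.44 to 0.73) and 0.32 (SE 0.32), and the first turns to -0.10 with arrays centred on their medians.

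Tgfa, which encodes transforming growth factor alpha, gave 1646.5, 1399.4 and 871.4 in Stat3Δ/Δ pools 1 to 3 and 1492.2, 1232.6 and 1110.9 in control pools 1 to 3 for its brightest probe set, 1421943_at. The log2 fold change was -0.037 (SE 0.30, adjusted p = 0.989 over genes from limma; 95% interval -0.73 to 0.66). Probe set 1450421_at gave -0.16, with 387.7 to 735.9 in Stat3Δ/Δ cells and 544.3 to 632.6 in controls. Probe set 1421942_s_at, dim and of a kind that can match more than one transcript family, gave 0.49 (SE 0.44), with 77.2 to 292.8 in Stat3Δ/Δ cells and 44.5 to 202.3 in controls. All 3 had overlapping groups, and their directions differed.

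Nrg1, or neuregulin 1, the ligand of ERBB3 and ERBB4 among the members, was dim. It gave 307.1, 207.3 and 209.0 in Stat3Δ/Δ pools 1 to 3 and 136.6, 420.4 and 217.2 in control pools 1 to 3. The Stat3Δ/Δ values lay inside the range of the controls, and the log2 fold change was -0.13 (SE 0.34, adjusted p = 0.957 over genes from limma; 95% interval -0.91 to 0.66).

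Over the 9 genes, 3 had a log2 fold change above 0 and 6 below, with a median of -0.056. Over all 18193 genes 7398 lay above 0 and 10795 below, with a median of -0.085. Over the 20 probe sets, 11 lay above 0 and 9 below, with a median of 0.035, beside -0.017 over all probe sets. The 95% intervals lay within a 2-fold change either way for 6 of the 9 genes and for 11 of the 20 probe sets, and within a 1.5-fold change for none of the genes. The exceptions among the genes were Erbb2, Erbb4 and Ereg. For each of the 9 genes, a 1.5-fold difference in at least 1 direction thus lies inside the interval.

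**Figure D3:**
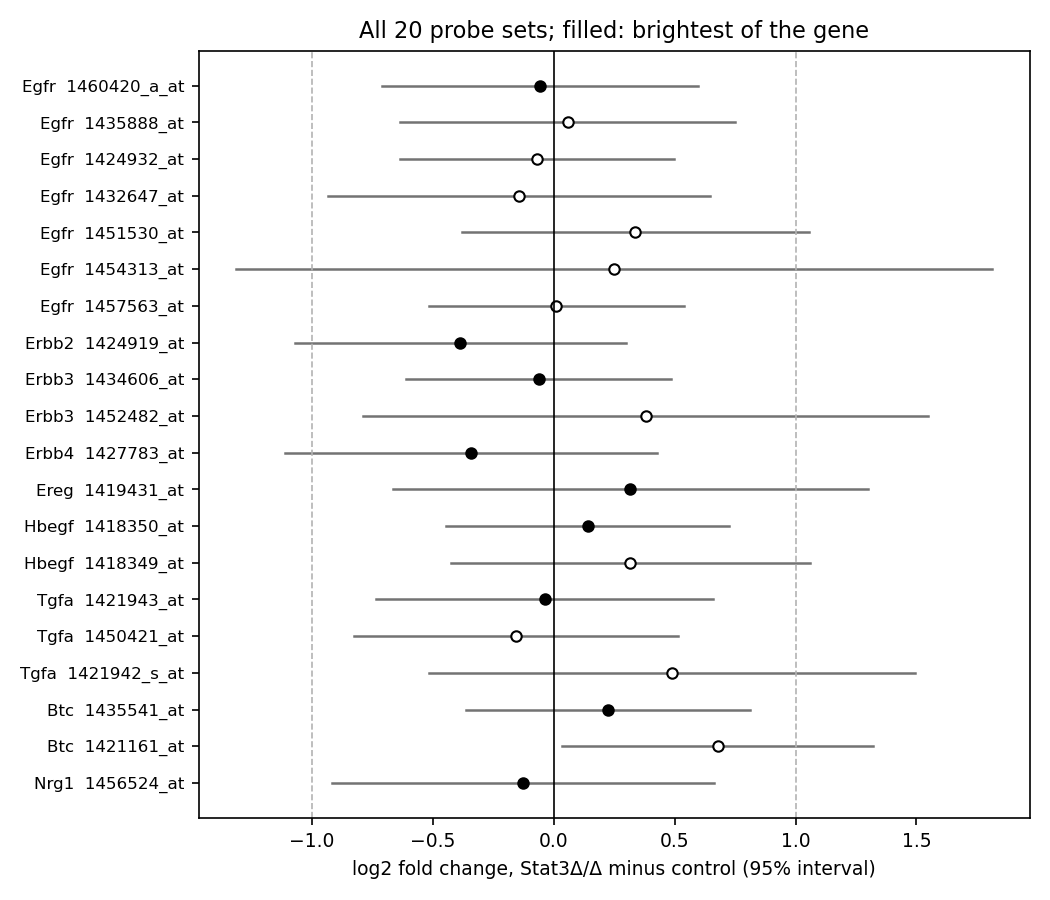
Log2 fold change with its 95% interval from limma (x axis) for the 20 probe sets of 9 genes, with the brightest of each gene filled and dashed lines at a 2-fold change. The interval of 1 probe set, the dimmer of Btc, leaves out 0.

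The genes around the receptors were described with 7 lists, each gene by its brightest probe set. No gene of these lists passed the FDR, and 7.69% of all genes passed an unadjusted p of 0.05 with a fold of 1.5, 2.15% higher and 5.54% lower. Of 5 other EGF-family ligands, 0 passed these thresholds; their median log2 fold change was 0.079, with Egf at 0.25 (SE 0.27) having the smallest p. The next list held 10 genes, the ADAM sheddases that release ligands, the iRhoms that assist them and Timp3, an inhibitor of such metalloproteinases (-0.29, SE 0.54); 0 were higher and 1 lower, with a median of 0.13. The lower gene was Adam15, a membrane metalloproteinase, with 1650.6, 2202.8 and 1872.7 in Stat3Δ/Δ cells and 4040.8, 3318.1 and 2816.9 in controls. The groups did not overlap, and its log2 fold change was -0.81 (SE 0.27, adjusted p = 0.537 over genes from limma), while its 4 probe sets ran from -0.81 to 0.090.

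Of 16 genes that restrain the receptors or carry them to degradation, 0 were higher and 1 lower at these thresholds, with a median of -0.010. The ubiquitin ligase gene Cblb, named after its value was seen, gave 0.25 (SE 0.25, unadjusted p = 0.34 from limma) by its brightest probe set. The paper reports Cblb as increased, from values normalized by another method. The cause of this difference was not tested. Lrig3, one of the LRIG membrane proteins, had 391.9, 491.3 and 358.9 in Stat3Δ/Δ pools 1 to 3 and 900.0, 874.2 and 1009.5 in control pools 1 to 3. The 2 groups were well apart, with a log2 fold change of -1.16 (SE 0.24, unadjusted p = 0.0013, adjusted p = 0.447 over genes from limma). It was -1.12 within the shared title number and between -1.27 and -1.10 without any 1 pool, and its 3 probe sets, from -1.16 to -0.38, all lay below 0. Its relatives Lrig1, a known inhibitor of EGFR, and Lrig2, named after their values were seen, gave 0.44 and -0.18, and Errfi1, the feedback inhibitor of EGFR, also named afterwards, gave 0.0073.

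Downstream, of 16 adaptors and kinases of the ERK cascade 0 were higher and 1 lower, with a median of -0.0023. The kinase Map2k2 gave -0.62 (SE 0.26) for its brighter probe set and -0.13 for the other. Of 10 genes of the PI3K and AKT branch 0 were higher and 1 lower, with a median of 0.050. That gene was Akt2, a kinase of the branch, with -0.75 and a range from -0.76 to -0.18 over 3 probe sets. The paper also reports Akt2 as lower by RT-PCR. Among 16 genes that ERK induces as feedback or target, 1 was higher and 1 lower. In this list 4 lay above 0 and 12 below, beside 7398 above and 10795 below over all genes. Its median was -0.18, or -0.40 within the shared title number.

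Egr1, an immediate early transcription factor, had 27206.0, 25070.4 and 27367.2 in Stat3Δ/Δ pools 1 to 3 and 47013.4, 57600.2 and 57671.4 in control pools 1 to 3. All Stat3Δ/Δ arrays lay below all controls, and the log2 fold change was -0.91 (SE 0.25, unadjusted p = 0.0064, adjusted p = 0.484 over genes from limma). Myc, a growth-promoting transcription factor, went the other way, with 11455.6, 10340.9 and 12444.7 against 6023.5, 7021.2 and 8467.0 and a log2 fold change of 0.69 (SE 0.26, adjusted p = 0.579 over genes from limma). The feedback inhibitors Spry1, Spry2 and Spry4 (Sprouty genes) and Dusp6, an ERK phosphatase, gave -0.21, -0.28, -0.41 and -0.21. Their SE ran from 0.27 to 0.30 and their unadjusted p from limma from 0.17 to 0.50, so none was told apart from 0. They were named after their values were seen and do not stand for their list. Of its 16 genes, 4 lay above 0, from 0.012 for Spred2 to 0.69 for Myc.

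Of 10 membrane partners of the receptors, 1 was higher and 1 lower, with a median of -0.16. The mucin Muc4, a known partner of ERBB2, had 2079.2, 1209.4 and 2210.7 in Stat3Δ/Δ cells and 3626.6, 4001.6 and 2469.7 in controls, a log2 fold change of -0.89 (SE 0.33, adjusted p = 0.583 over genes from limma), with 3 probe sets that ran from -0.89 to 0.48. The tetraspanin Cd9, which is known to associate with the precursor of HB-EGF, gave 0.62 (SE 0.24, adjusted p = 0.605 over genes from limma). Both separated the groups without overlap, and neither passed the FDR. The brightest probe sets of Adam15 and Muc4 end in _x_at and that of Akt2 in _s_at, which mark possible cross-hybridization.

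**Figure D4:**
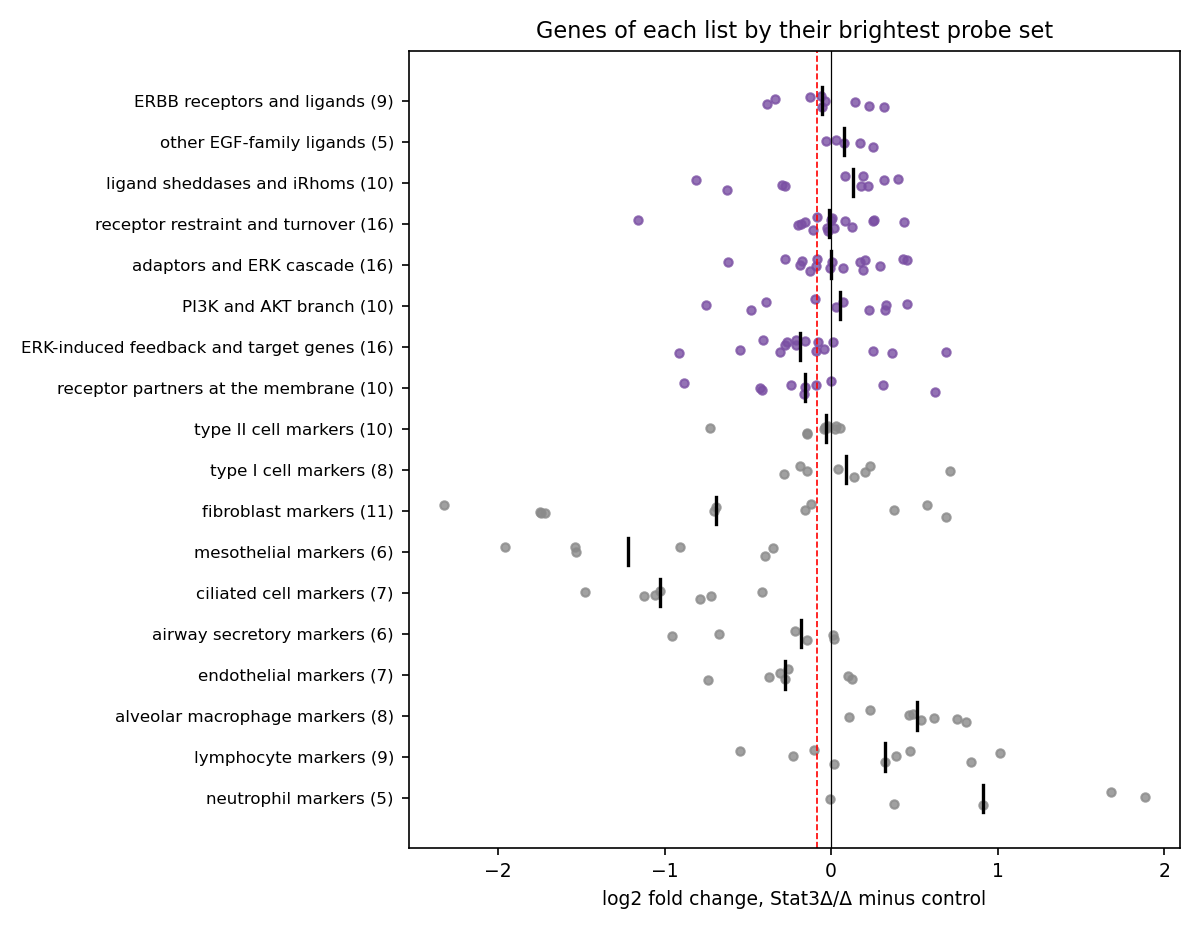
Log2 fold change (x axis) of each measured gene of the ERBB family, 7 lists of genes around it (purple) and 10 lists of cell type markers (grey), with black bars at list medians and the dashed red line at the median of all genes, -0.085. The 9 family genes lie between -0.39 and 0.32, while markers of mesothelial and ciliated cells all lie below 0 and those of macrophages above 0.

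Markers of type II cells and of other lung cells were read on the same arrays, and none of them passed the FDR. Beside their directions, 7398 of all genes lay above 0 and 10795 below. Of 10 markers of type II cells 7 lay below 0, with a median log2 fold change of -0.032, or -0.14 within the shared title number. The surfactant protein genes Sftpa1 and Sftpd, among the brightest, gave -0.038 and 0.053. Their mean signals lay at percentiles 99.99 and 99.97 of the probe sets, where quantile normalization replaces signals by rank means shared between arrays. Sftpa1 thus had a log2 value of 17.03 in both Stat3Δ/Δ pools 1 and 3, from signals of 123762 and 147209. Values near 0 are largely set by the normalization for these genes, so no stable level is read from them. The lipid transporter gene Abca3 was the 1 marker lower at an unadjusted p of 0.05 and a fold of 1.5, at -0.73 (SE 0.25, adjusted p = 0.561 over genes from limma). All 6 mesothelial markers lay below 0, with a median of -1.22, or -1.19 within the shared title number. Their summed signal was 26324.7 to 40765.9 in Stat3Δ/Δ cells and 40084.7 to 55932.0 in controls, which overlap. Most of that sum was Krt19, a keratin gene of many epithelia, with 22843.4 to 36862.7 against 30891.0 to 43053.9 and a log2 fold change of -0.40, while Upk3b, a mesothelial gene, gave -1.96. All 7 markers of ciliated cells lay below 0 too, with a median of -1.03, or -0.85 within the shared title number. Their summed signals of 32613.7 to 47278.3 against 44927.4 to 82977.5 overlap as well. Of 11 fibroblast markers 8 lay below 0, with a median of -0.69, or 0.060 within the shared title number. Their summed signals were 13309.5 to 22513.8 against 22889.8 to 40336.5. These markers did not move together. The brightest of them, Fn1 and Col3a1, gave 0.58 and -1.74, or 1.03 and -1.68 within the shared number. All 8 markers of alveolar macrophages lay above 0, with a median of 0.52, or 0.57 within the shared title number. Their summed signals were 106694 to 137469 against 76148.3 to 94257.7. Of 5 neutrophil markers 4 lay above 0, with a median of 0.91, or 0.28 within the shared title number. Their summed signals were 20807.1 to 26717.9 against 4170.1 to 13072.8. The brightest of them, S100a8 and S100a9, gave 1.68 and 1.88, or 1.18 and 1.37 within the shared number. Medians were 0.32 for lymphocytes and -0.28 for endothelial cells, or 0.021 and -0.0045 within the shared title number, and 0.091 for type I cells and -0.18 for airway secretory cells, and no marker had a signal of 0. The part of these cells in the signals of the receptors and ligands was not tested.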

How the data were processed

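RNA from 6 pools of alveolar type II cells was hybridized to 1-colour MOE430 arrays. The values deposited are linear-scale signals from Microarray Suite 5.0 (MAS5), which the authors scaled so that the trimmed mean is 1500 on every array. The methods also name a Robust Multichip Average normalization, whose values were not used here, and detection calls were not used. Pools were grouped by their titles. Of 45101 probe sets 64 controls were left out. After adding 69.9, their 20th percentile, signals were put on the log2 scale and quantile normalized, and the groups were compared with limma (version 3.58.1, R 4.3.3). Of the probe sets, 34945 name 1 gene, 932 several and 9160 none in the platform annotation; symbols were updated through Entrez IDs. A gene with several probe sets was represented by the one with the highest mean. Numbers in the titles were used as a fixed or random block. All members and lists were chosen with earlier results of these data known. The named genes were all members, Stat3 and the 3 genes most like the member of smallest p. Of each pathway list up to 3 genes past an unadjusted p of 0.05 and a fold of 1.5 were named, or else that of smallest p. The 2 brightest markers were named for type II, mesothelial, fibroblast and neutrophil lists and not for the others. Epgn, Errfi1, Lrig1, Lrig2, Cblb, Dusp6, Timp3, Abca3 and the Sprouty genes were added after their values were seen. Etv5 stands in 2 lists. The fit was tested on simulated data with 200 changed probe sets. The number of arrays limits the precision, and p from limma sets the group difference against the spread between pools, moderated over all probe sets. Alternatives changed the pseudocount, the normalization, a filter on signal, the test and variance model, array weights, blocks, thresholds, the probe set of a gene and the pools left out. Other steps used scipy 1.17.1, numpy 2.4.6, pandas 2.3.3 and matplotlib 3.10.9 under Python 3.11.15.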

Additional observations from a re-analysis of the deposited data

How the results depend on the processing

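No probe set of the family passed the FDR under any alternative run. Of 342 values of its probe sets under the alternatives, 38 had a turned sign, over 15 of the 20 probe sets, and the cause was not tested. Depth of signal limits the dim probe sets: 7 of the 20 had a mean at or under the median of all, so that the filter on mean signal gave no value for them.

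In the report 1 probe set of the family, 1421161_at of Btc, was higher at an unadjusted p of 0.05 and a fold of 1.5. The filter on mean signal leaves it out before testing, so a count of 0 there is no test of it. Among the other settings, 0 were higher with the pseudocount at the median of all signals, arrays centred on their medians or an intensity trend with robust variance. With array weights or a random block on the number that opens the titles, 0 were higher too. With that number as a fixed block 2 were, Ereg and 1454313_at of Egfr, and by the brightest probe set 1 gene, Ereg. With 1 pool left out the count higher ran from 0 to 1, being 1 without Stat3Δ/Δ pool 1 (then 1421942_s_at of Tgfa, at 0.92) and without Stat3Δ/Δ pool 2 (1421161_at of Btc, at 0.85), and the count lower from 0 to 1, being 1 without control pool 3 (1454313_at of Egfr). Dropping the FDR with all pools kept gives 1 probe set, 1421161_at of Btc, toward higher signal.

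The pool numbers in the labels did not pair the arrays, with correlations of same-numbered deviations of -0.084, -0.0088 and -0.24. With the pool number as a replicate block, 0 probe sets of the family were higher without the FDR, and 0 of all probe sets passed it.

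Over all probe sets, the FDR was passed by 1 higher and 0 lower. The count higher was 0 with no pseudocount, the methods' t-test, either the title number or the pool number as a fixed block, or an FDR of 5%, 2 with arrays centred on their medians and 2 with array weights. The counts higher and lower were 8 and 3 with the pseudocount at the median, 11 and 4 with the filter, which tests fewer probe sets, and 10 and 3 with an intensity trend. With 1 pool left out 0 to 1 were higher. Without the FDR 1866 were higher and 1901 lower. These became 1011 and 813 with the pseudocount at the median and 1000 and 1216 by the methods' t-test, while 2909 were higher with array weights, 1114 lower with the filter, and 1238 to 2926 higher with 1 pool left out. The share of higher ones was 49.5%, and 62.8% with no normalization between arrays and 40.2% with arrays centred on their medians.

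With the title number as fixed block, the log2 fold change turned to 0.42, -0.11, 0.13, 0.57 and -0.29 for the Egfr probe sets 1460420_a_at, 1435888_at, 1424932_at, 1432647_at and 1451530_at, to 0.11 for Erbb4, 0.45 and -0.35 for 1421943_at and 1421942_s_at of Tgfa and 0.15 for Nrg1. As a random block it gave 0.015 for 1460420_a_at and 0.010 for 1421943_at. With arrays centred on their medians 1435888_at gave -0.017, 1457563_at -0.11 and 1418350_at of Hbegf -0.10. Array weights gave -0.070 for 1454313_at, -0.024 for 1457563_at, -0.047 for 1452482_at of Erbb3, 0.033 for 1421943_at and -0.27 for Epgn. With the pseudocount at the median 1454313_at gave -0.0017, and with no normalization Nrg1 gave 0.0013 and 1424272_at of Stat3 0.026. The mean of a gene's probe sets gave 0.056 for Egfr, 0.16 for Erbb3 and 0.099 for Tgfa.

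With 1 pool left out, signs turned over ranges of -0.28 to 0.13 (1460420_a_at), -0.088 to 0.26 (1435888_at), -0.13 to 0.047 (1424932_at), -0.50 to 0.13 (1432647_at), -0.66 to 0.72 (1454313_at) and -0.020 to 0.053 (1457563_at) for Egfr. They were -0.20 to 0.84 for 1452482_at of Erbb3, -0.21 to 0.20 and -0.30 to 0.080 for 1421943_at and 1450421_at of Tgfa, -0.36 to 0.22 for Nrg1, -0.43 to 0.38 for Epgn and -0.41 to 0.18 for 1424272_at of Stat3.

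Medians of the lists moved by more than the spread between pools as follows. With title number as fixed block, values were 0.15 for the family, 0.015 for receptor restraint, -0.40 for ERK-induced genes, -0.14 for type II, 0.060 for fibroblast, -0.0045 for endothelial, 0.021 for lymphocyte and 0.28 for neutrophil markers. With arrays centred on their medians, which moves the median of all genes by -0.094, they were -0.18 for receptor restraint, -0.097 for the ERK cascade, -0.043 for the PI3K branch, -0.38 for ERK-induced genes, -0.32 for membrane partners, -0.28 for type II, -0.064 for type I and -0.44 for secretory markers. With no normalization they were -0.038 for receptor restraint, -0.14 for type II and -0.30 for secretory markers. Array weights gave -0.18 for the other ligands and -0.045 for receptor restraint, and the mean of a gene's probe sets 0.077 for receptor restraint and 0.19 for the ERK cascade. The filter gave -1.72 for fibroblast and 1.30 for neutrophil markers, and the pseudocount at the median -0.96 for mesothelial markers. With 1 pool left out the medians ran from -0.17 to 0.12 for the family, -0.19 to 0.28 for the other ligands, -0.061 to 0.25 for sheddases, -0.068 to 0.036 for receptor restraint, -1.33 to -0.89 for mesothelial and -0.40 to -0.082 for endothelial markers.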
